A study of Mus musculus with 6 samples.

Results

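The osteoblast-like nuclei were a small set of nuclei from photothrombotic (PT) lesions of the mouse cortex that carried transcripts of bone-forming cells. They were chosen among nuclei with at least 1000 unique molecular identifiers (UMIs, counts of single captured RNA molecules) of which under 5% were mitochondrial. A nucleus was taken when at least 3 of the 6 bone genes Bglap, Bglap2, Ibsp, Sp7, Dmp1 and Alpl had 1 UMI or more and at most 1 of the immune and endothelial genes Ptprc, Csf1r, Mrc1 and Pecam1 was detected. By this rule 227 of 60729 nuclei were osteoblast-like. They were found in every library, as 3 nuclei of 7906 in Ctrl at 7 days post-injury (dpi), 33 of 10914 in ADWA11 at 7 dpi, 2 of 10856 in Tgfbr2-cKO at 7 dpi, 74 of 12069 in Ctrl at 21 dpi, 114 of 12656 in ADWA11 at 21 dpi and 1 of 6328 in Tgfbr2-cKO at 21 dpi.

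The 6 libraries were single-nucleus RNA-seq of lesions that had been dissected free of the overlying skullcap, with nuclei sorted on the DNA dye DAPI. In PT injury, light directed at the cortex activates an injected photosensitive dye and clots the local vessels. All groups had this injury, and every group was a single library made from the tissue of 1 male and 1 female mouse. Ctrl mice were wild type with no treatment recorded. ADWA11 mice were wild type and received ADWA11, an antibody that blocks the integrin αvβ8, a cell-surface receptor that frees TGFβ from its latent form. It was injected intraperitoneally on the day of injury and weekly after it. Tgfbr2-cKO mice carried Col1a2(creER) and Tgfbr2(flox), in which tamoxifen deletes the TGFβ receptor gene Tgfbr2 in cells that express Col1a2, so that the deletion covers fibroblasts and any other cell with this collagen promoter active. Ages were not in the labels. With 1 library a group no test was made between conditions, and the only values per animal are those of nuclei called female or male. Intervals below are exact 95% intervals that cover counting error only, and bone or dura carried into a lesion at dissection cannot be told apart from the condition.

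Osteoblasts arise from mesenchymal progenitors under the transcription factors RUNX2 and then SP7 (osterix). They lay down a matrix of type I collagen and mineralize it with the help of tissue-nonspecific alkaline phosphatase (Alpl), which removes the mineralization inhibitor pyrophosphate. Ibsp (bone sialoprotein) and Bglap and Bglap2 (osteocalcin) are secreted into that matrix late in the program, and Dmp1 marks the change to osteocytes, the cells buried in bone. The healthy cortex holds no bone, but the skull above it does.

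Bglap (ENSMUSG00000074483) lies on chromosome 3 at 88383501-88384464 of GRCm38, on the minus strand. Its near-identical neighbours Bglap2 (88377736-88378699) and Bglap3 (88368616-88372743) lie beside it, and reads that match more than 1 of them may have been split or dropped in counting, so their separate levels are uncertain. Ibsp (chromosome 5, 104299171-104311469) and Dmp1 (chromosome 5, 104202613-104214102) are also neighbours, on the plus strand. Sp7 lies on chromosome 15 (102356606-102367182), Alpl on chromosome 4 (137741733-137796384) and Runx2 on chromosome 17 (44495987-44814797), all on the minus strand. The promoters of Bglap, Ibsp and Runx2 are given because Runx2 opens the program that these nuclei carry and Bglap and Ibsp are secreted late in it. Each is the RefSeq GRCm38.p6 sequence from 250 bases before to 50 after the transcription start, 5′ to 3′ on the gene's strand, at chr3:88384417-88384716, chr5:104299037-104299336 and chr17:44814578-44814877. Capitals mark the letters ACCACA, the core that RUNX proteins bind, or their reverse complement TGTGGT.
Bglap: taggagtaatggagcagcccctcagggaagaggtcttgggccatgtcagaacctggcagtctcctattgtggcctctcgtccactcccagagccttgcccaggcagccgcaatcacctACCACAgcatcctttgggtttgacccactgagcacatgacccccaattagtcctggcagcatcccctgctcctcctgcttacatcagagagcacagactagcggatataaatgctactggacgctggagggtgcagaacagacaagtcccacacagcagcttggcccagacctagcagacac
Ibsp: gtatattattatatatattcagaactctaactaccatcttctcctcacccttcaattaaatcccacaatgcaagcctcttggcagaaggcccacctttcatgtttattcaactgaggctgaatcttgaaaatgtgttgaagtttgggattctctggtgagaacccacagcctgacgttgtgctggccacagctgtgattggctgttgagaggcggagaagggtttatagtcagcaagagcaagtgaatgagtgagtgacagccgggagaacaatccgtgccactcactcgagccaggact
Runx2: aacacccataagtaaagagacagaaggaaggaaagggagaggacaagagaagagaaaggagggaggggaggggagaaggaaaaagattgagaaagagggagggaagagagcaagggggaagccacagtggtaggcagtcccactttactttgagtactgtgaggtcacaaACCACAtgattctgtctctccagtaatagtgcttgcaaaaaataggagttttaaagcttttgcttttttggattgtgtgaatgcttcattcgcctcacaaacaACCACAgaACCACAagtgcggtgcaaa
The Bglap promoter held 1 match, the Ibsp promoter none and the Runx2 promoter 3. Of 32851 mouse promoters of this length, 16.8% held at least 1 match and 0.174% held 3 or more, and 4 of the 6 marker genes of the rule were in the promoter table.

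The libraries held between 64798965 and 140310354 UMIs. The median nucleus passing the filter had between 5221 and 9113.5 UMIs, and the osteoblast-like nuclei had medians of 8097 UMIs in 7 dpi ADWA11, 7330.5 in 21 dpi Ctrl and 6371 in 21 dpi ADWA11, with a range of 1022 to 30918. The Tgfbr2-cKO libraries stood apart in their makeup: nuclei with at least 3 neuronal markers made up 78.6% of the library at 7 dpi and 34.5% at 21 dpi, against 1.11% to 3.94% in the other 4, and other fibroblast nuclei made up 3.53% and 10.9%, against 28.3% to 53.5%. The part of this makeup in the low number of osteoblast-like nuclei there was not tested. Library pairs shared between 21 and 61 barcodes, and no shared barcode was osteoblast-like in both libraries. Below the filter, 19 of 6631 barcodes had at least 3 of the bone genes, and 44 nuclei passed on the bone genes but had 2 or more of the immune and endothelial genes.

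The nuclei carried the osteoblast program beyond the genes that chose them, and 223 of the 227 also had at least 3 of the fibroblast genes Col1a1, Col1a2, Col3a1, Dcn, Lum and Pdgfra. Col22a1, a fibril-associated collagen, was detected in 78.8% of them in 7 dpi ADWA11, 59.5% in 21 dpi Ctrl and 64.0% in 21 dpi ADWA11. It was detected in 3.31%, 1.39% and 1.73% of other fibroblast nuclei, the nuclei with at least 3 of the fibroblast genes that were not osteoblast-like, and in 0.835%, 1.25% and 0.709% of nuclei with 2 or more of the immune and endothelial genes. Markers of other cells of bone and marrow were then counted. No osteoblast-like nucleus had 3 or more markers of T cells, neutrophils or marrow progenitors, 2 had those of B cells, 11 those of osteoclasts and 34 those of chondrocytes. Over all nuclei passing the filter, 3 or more markers were found by library in 0.433% to 9.39% for T cells, 0.0921% to 0.972% for neutrophils and 0.0395% to 0.293% for marrow progenitors, so that few or none would be counted among 227 nuclei for the latter 2 at these shares. Of the 11 with osteoclast markers, 9 were among the 114 of 21 dpi ADWA11, where 8.22% of all nuclei had them. The chondrocyte share was 15.2% in 7 dpi ADWA11, 20.3% in 21 dpi Ctrl and 11.4% in 21 dpi ADWA11, against 9.32%, 9.68% and 4.65% of all nuclei passing the filter there. The chondrocyte list summed to 1504, 1230 and 891 CPM (the usual counts-per-1000000 scale, here of non-mitochondrial UMIs) in osteoblast-like nuclei and 1072, 581 and 554 CPM in other fibroblasts of the same libraries, mostly Sox6, which gave 1270 of the 1504 CPM at 7 dpi. Markers of macrophages and related myeloid cells reached 3 or more in 80 nuclei, against 32.2% to 75.8% of all nuclei by library. Their list summed to 624, 524 and 614 CPM against 434, 486 and 460 CPM in other fibroblasts and 4711, 3250 and 5254 CPM in all other nuclei. This list holds the exclusion genes Ptprc, Csf1r and Mrc1. The rule thus lowers the count and the sums in osteoblast-like nuclei and in other fibroblasts, but not in all other nuclei. Astrocyte markers reached 3 or more in 41 nuclei, against 14.4% to 32.5% of all nuclei by library. Those of oligodendrocyte precursors did so in 25, against 3.17% to 30.4%. Of these 25, 13 were among the 114 of 21 dpi ADWA11, where 3.17% of all nuclei had them. In all, 112 of the 227 had at least 3 markers of some other class. That share was 60.6%, 45.9% and 48.2% in the 3 libraries, against 81.8%, 60.6% and 57.4% of other fibroblast nuclei, and no doublet caller was run. The class lists share genes with the bone and fibroblast lists, among them Pdgfra, Vcan, Gja1 and Ebf1. A nucleus with 3 markers of another class is therefore not always a mixed one.

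Of the genes of the rule, Sp7 was the one found most evenly, in 84.8%, 86.5% and 85.1% of osteoblast-like nuclei of 7 dpi ADWA11, 21 dpi Ctrl and 21 dpi ADWA11. Ibsp was detected in 63.6%, 60.8% and 60.5%. Alpl was detected in 78.8% at 7 dpi in ADWA11 and in 44.6% and 47.4% in Ctrl and ADWA11 at 21 dpi. Bglap ran the other way, with 57.6%, 73.0% and 85.1%, and Bglap2 was detected in 48.5%, 73.0% and 68.4%. The rule fixes part of this opposition, because a nucleus without Alpl must carry 3 of the other 5 genes. Dmp1 was rare, in 6.06%, 4.05% and 8.77%. The commonest combination was Ibsp with Sp7 and Alpl in 7 dpi ADWA11 (11 of 33 nuclei), Bglap with Bglap2 and Sp7 in 21 dpi Ctrl (18 of 74), and Bglap, Bglap2, Ibsp and Sp7 in 21 dpi ADWA11 (24 of 114). All 3 nuclei of 7 dpi Ctrl had Sp7 and Alpl, and the pair in 7 dpi Tgfbr2-cKO had Ibsp and Alpl. Free RNA can give UMIs in nuclei that do not express a gene, and Bglap was detected in 0.745%, 4.58% and 4.20% of other fibroblast nuclei (median 9484, 5837.5 and 7148 UMIs) and in 0.450%, 5.49% and 3.94% of nuclei with 2 or more of the immune and endothelial genes (median 7505.5, 5242 and 5364 UMIs). With every nucleus thinned to 1000 UMIs, Bglap was detected in 33.3%, 47.3% and 46.5% of osteoblast-like nuclei and 0.259%, 1.25% and 0.960% of other fibroblasts.

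As a share of nuclei, osteoblast-like nuclei were more frequent at 21 than at 7 dpi in Ctrl and in ADWA11, and more frequent in ADWA11 than in Ctrl at both times when the nuclei of the mice of a library were pooled. They made up 0.0379% of nuclei in 7 dpi Ctrl (0.00783% to 0.111%), 0.302% in 7 dpi ADWA11 (0.208% to 0.424%) and 0.0184% in 7 dpi Tgfbr2-cKO (0.00223% to 0.0665%). At 21 dpi they made up 0.613% in Ctrl (0.482% to 0.769%), 0.901% in ADWA11 (0.744% to 1.08%) and 0.0158% in Tgfbr2-cKO (0.000400% to 0.0880%). The 3 smallest shares had overlapping intervals, and the 3 largest stood above them. The share in ADWA11 was 7.97 times that in Ctrl at 7 dpi (2.5 to 40.6) and 1.47 times at 21 dpi (1.09 to 2.00). The 7 dpi ratio rested on 3 Ctrl nuclei, and was 2.62 (1.60 to 4.48) with at least 2 of the bone genes and 3.62 (0.405 to 171) with every nucleus thinned to 1000 UMIs. At 21 dpi the ratio was 1.24 (0.873 to 1.75) in nuclei with no exclusion gene detected. From 7 to 21 dpi it differed by a ratio of 16.2 in Ctrl (5.32 to 80.1), which rested on the same 3 nuclei and was 5.24 (0.703 to 233) thinned to 1000 UMIs and 2.44 (1.64 to 3.72) with nuclei chosen by other osteoblast genes, and 2.98 in ADWA11 (2.01 to 4.53), where it was 1.78 (0.926 to 3.70) in male nuclei. The other osteoblast genes were 11 check markers, a setting added after seeing the data that asked for 3 of them and 3 fibroblast genes. It took 487 nuclei, of which 178 were osteoblast-like by the rule, so most were different nuclei. In Tgfbr2-cKO the ratio to Ctrl was 0.486 at 7 dpi (0.0406 to 4.24), from 2 and 3 nuclei, which counting error alone could give. With at least 2 of the bone genes it was 0.173 (0.0511 to 0.473) there, and 0.250 (0.114 to 0.510) with nuclei chosen by other osteoblast genes. At 21 dpi it was 0.0258 (0.000644 to 0.148), from 1 Tgfbr2-cKO nucleus. Under the same 2 settings it was 0.174 (0.103 to 0.279) and 0.385 (0.237 to 0.600). Against fibroblasts instead of all nuclei, the 7 dpi Tgfbr2-cKO ratio turned to 4.37 with an interval of 0.365 to 38.2, the 21 dpi Tgfbr2-cKO ratio was 0.128 (0.00320 to 0.736), and the ADWA11 ratio at 21 dpi was 2.68 (1.98 to 3.64).

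Each library pooled a female and a male mouse, and their nuclei could be told apart for 182 of the 227 by Xist and Y-linked transcripts. The 21 dpi comparison of ADWA11 with Ctrl went opposite ways in them. Among nuclei called female, 52 of 3456 were osteoblast-like in ADWA11 and 17 of 6344 in Ctrl, shares of 1.5% and 0.268% with a ratio of 5.61 (3.19 to 10.4). Among nuclei called male, 45 of 7052 were osteoblast-like in ADWA11 and 37 of 3247 in Ctrl, shares of 0.638% and 1.14% with a ratio of 0.560 (0.354 to 0.890). The pooled ratio of 1.47 thus lay between a single female pair and a single male pair of mice that differed in direction. At 7 dpi in ADWA11 the nuclei came from both mice, with 17 called female (0.319% of female nuclei) and 12 called male (0.358%). The 3 nuclei of 7 dpi Ctrl had no sex call, and 0 of 2894 female and 0 of 2971 male nuclei there were osteoblast-like.

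**Figure D1:**
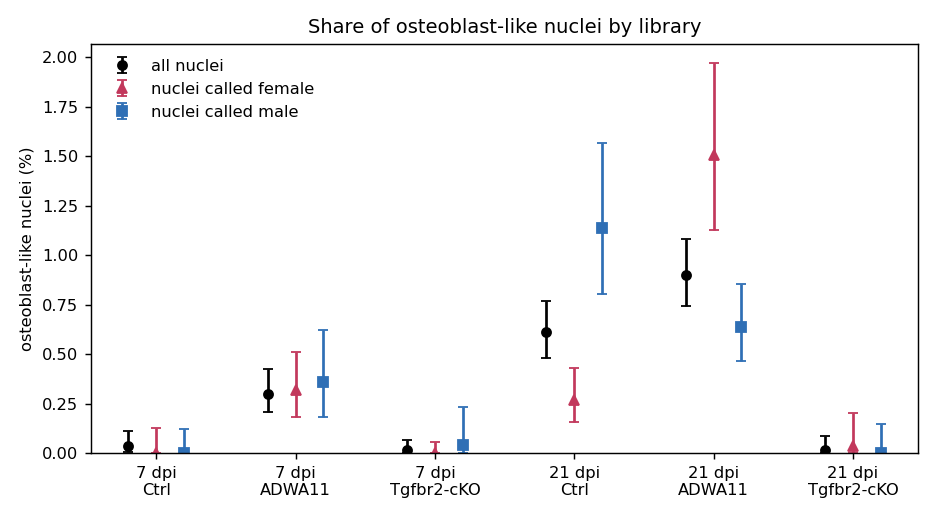
Share of nuclei passing the filter that were osteoblast-like (percent, y axis) in each of the 6 libraries (x axis), for all nuclei (black circles), nuclei called female (red triangles) and nuclei called male (blue squares, both over nuclei of that sex). Bars are 95% exact binomial intervals. The female share is above the male share in ADWA11 at 21 dpi (1.5% and 0.638%) and below it in Ctrl at 21 dpi (0.268% and 1.14%).

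Levels were compared only for the 3 libraries with at least 20 osteoblast-like nuclei, as CPM of their summed UMIs. Against other fibroblast nuclei of the same library (3086 in 7 dpi ADWA11, 6462 in 21 dpi Ctrl and 3645 in 21 dpi ADWA11), the genes of the rule were higher by construction. Bglap was at 421, 2701 and 1095 CPM against 1.55, 8.49 and 10.7 CPM, Ibsp at 369, 335 and 367 CPM against 3.34, 2.16 and 2.90 CPM, Sp7 at 225, 263 and 273 CPM against 3.18, 5.63 and 9.94 CPM, and Alpl at 354, 247 and 214 CPM against 18.8, 25.3 and 48.8 CPM. Because the rule picked these nuclei from the same cells, the values that follow against fibroblasts describe the nuclei and test nothing. Of 5593 genes with enough expected UMIs in every library, 2.88% were more than 2-fold higher in osteoblast-like nuclei in all 3. In turn, 8.3% were more than 2-fold lower in all 3.

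Of 10 osteogenic transcription factors compared, 3 were over 2-fold higher in all 3 libraries and 2, Ebf2 and Foxc1, over 2-fold lower, with list medians of 0.16, 0.11 and 0.15 against -0.15, -0.17 and -0.10 over all genes. Runx2, the master regulator of the lineage, was at 6166, 6313 and 6429 CPM in 7 dpi ADWA11, 21 dpi Ctrl and 21 dpi ADWA11, between 7.86 and 11 times the level in other fibroblasts. Mef2c, a transcription factor of muscle and of osteocytes, was at 2051, 2086 and 1760 CPM against 173, 242 and 165 CPM. Smpd3, a sphingomyelinase needed for bone mineralization, had the largest ratio of the compared genes outside the rule when each gene was taken at its smallest of the 3 libraries, at 2300, 1346 and 1380 CPM and between 98 and 147 times the level in other fibroblasts. Col1a1, the main bone collagen chain, was at 5782, 15272 and 15866 CPM against 780, 893 and 769 CPM over all other fibroblasts, and Sparc, a collagen-binding matrix protein, at 1553, 4098 and 3521 CPM against 235, 398 and 320 CPM. Col11a2, a fibril collagen chain better known from cartilage, was at 972, 1246 and 1195 CPM against 25.2, 60.1 and 23.2 CPM. Col22a1 was at 858, 945 and 971 CPM against 10.3, 4.19 and 8.91 CPM. Each of these genes was higher than in other fibroblasts in all 3 libraries, by ratios that differed between them.

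Of 18 osteoblast genes listed apart from the rule, 9 had enough expected UMIs for the comparison. Of these 9, 6 were over 2-fold higher in all 3 libraries and 0 over 2-fold lower. The list's median log2 ratio to fibroblasts was 2.74, 3.22 and 3.32, against medians over all genes of -0.15, -0.17 and -0.10. Cdh11, an adhesion protein of osteoblasts that meningeal fibroblasts also make, was at 2426, 2648 and 2490 CPM against 2069, 1630 and 1996 CPM. Of 18 bone matrix genes compared, 9 were higher and 0 lower, with medians of 1.06, 1.71 and 2.06. Of 15 genes of collagen processing, 5 were higher and 0 lower. Of 9 mineralization genes, 3 were higher and 1 lower, with medians of 0.45, -0.18 and 1.17. Pth1r and Slc13a5 were not counted and were named after their values were seen. They had too few expected UMIs, which come from the pooled rate and so mostly from the far larger fibroblast sum. This filter can leave out genes found mainly in osteoblast-like nuclei. The list counts and the ranking against fibroblasts thus hold only for genes that passed it. Pth1r, the parathyroid hormone receptor, was at 403, 268 and 283 CPM against 18.3, 12.8 and 16.6 CPM, and Slc13a5, a citrate transporter used in loading bone mineral with citrate, was at 526, 271 and 205 CPM against 5.60, 1.82 and 5.18 CPM. Fap, a surface protease of activated fibroblasts, was at 1359, 2205 and 2231 CPM against 178, 205 and 164 CPM.

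Among the compared genes outside the rule, the highest by the smallest of their 3 ratios included Smpd3, Slc8a3, Fat3, Pdzd2, Col11a2, Col24a1, Cdh2 and Sgms2. They also included Cadm1, Lifr, Tmtc2, Sdk2, Ppfia2, Farp2, Rerg, Mef2c, Csrnp3, Runx2 and Lmo7. Their smallest log2 ratios ran from 6.61 for Smpd3 down to 2.97 for Lmo7. Slc8a3, a sodium-calcium exchanger, had log2 ratios between 5.27 and 5.84, Sgms2, a sphingomyelin synthase, between 3.87 and 5.02, and Lifr, the receptor of leukaemia inhibitory factor, between 3.64 and 4.89. Smpd3 and Sgms2 act on the same lipid in opposite directions, and both were high. Cdh2 (N-cadherin), an adhesion protein of osteoblasts and neurons, had log2 ratios between 3.98 and 4.92, and Fat3, an atypical cadherin, between 4.49 and 5.82.

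Genes of dural and meningeal fibroblasts were lower. Of 14 such genes compared, 12 were over 2-fold lower in all 3 libraries and 0 higher, with medians of -1.63, -1.93 and -2.18 on the log2 scale. Foxp2, a transcription factor of meningeal fibroblasts, was at 809, 1263 and 1163 CPM against 1955, 2804 and 2913 CPM, and Tbx18 at 24.6, 58.8 and 36.9 CPM against 328, 240 and 307 CPM. Col4a1, a basement membrane collagen, was at 178, 58.8 and 51.1 CPM against 545, 270 and 213 CPM. Bmp6, a bone morphogenetic protein, was at 33.8, 29.4 and 23.8 CPM against 490, 238 and 116 CPM, so this growth factor was lower in the nuclei with the bone program than in their neighbours. Slc7a11, the cystine transporter, was at 33.8, 13.8 and 9.51 CPM against 646, 159 and 144 CPM, with log2 ratios between -4.26 and -3.53. It and Col14a1 (-4.72 to -3.17) were singled out after their values were seen, being at the lower end of all genes.

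The signalling genes around the bone program were mixed. Of 15 TGFβ signalling genes compared with fibroblasts, 0 were over 2-fold higher in all 3 libraries and 1 was lower, Itgb8, at 95.3, 38.0 and 42.8 CPM in 7 dpi ADWA11, 21 dpi Ctrl and 21 dpi ADWA11 against 213, 134 and 149 CPM. Tgfbr2, the receptor chain deleted in Tgfbr2-cKO mice, was at 101, 100 and 117 CPM against 216, 198 and 191 CPM. Of 12 Wnt genes, Lrp4, the bone receptor of the Wnt inhibitor sclerostin, was higher with log2 ratios between 2.58 and 3.61, and the ligand Wnt5b between 1.18 and 2.02, while Sfrp4 and Wnt5a were lower. Of 13 BMP genes, Bmp1, which also trims procollagen, was higher with 1.17 to 1.19, and the ligands Bmp5, Bmp6 and Bmp7 were lower. Osteogenic transcription factors included Mef2c and Runx2 among the higher ones and Ebf2 and Foxc1 among the lower ones. Mgp, the matrix Gla protein that opposes calcification, was lower, with log2 ratios between -1.54 and -1.24. Cxcl12, a chemokine of marrow stroma and meninges that also draws osteoclast precursors, was at 27.7, 34.6 and 101 CPM against 154, 136 and 408 CPM. Osteoclast coupling genes counted 0 higher and 3 lower of 7, and the growth factor receptors Fgfr1 and Fgfr2 were at 612, 541 and 606 CPM and at 1264, 999 and 958 CPM in the osteoblast-like nuclei.

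**Figure D2:**
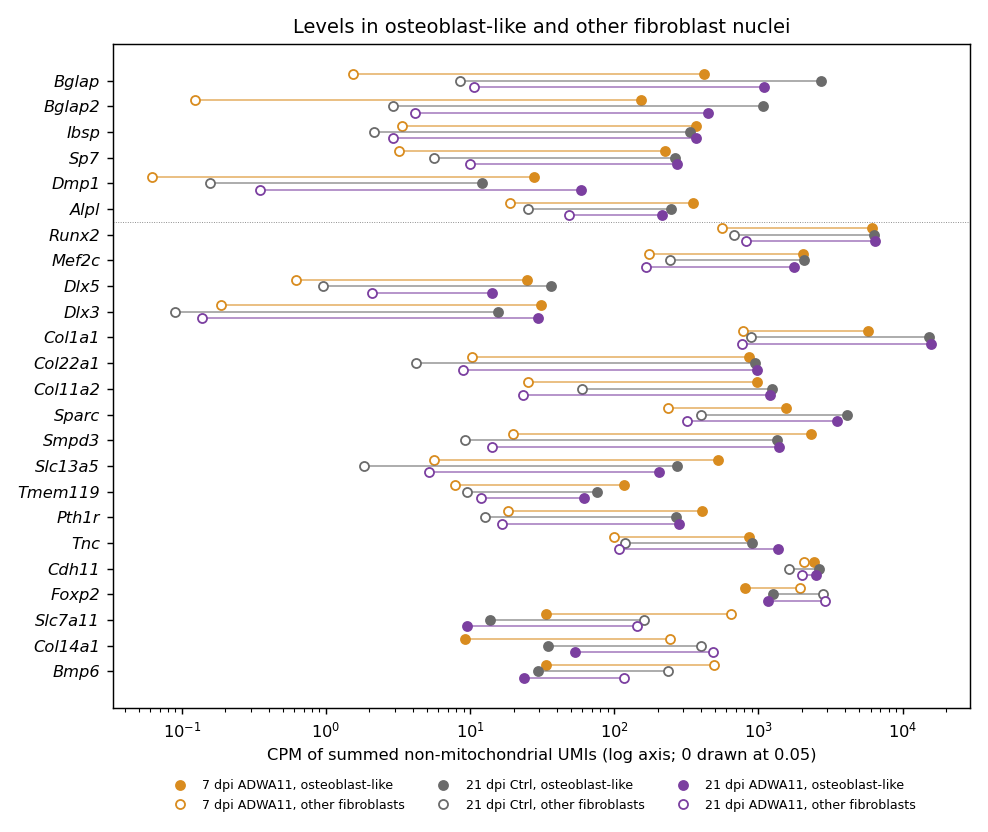
Level of 24 genes (CPM, log x axis) in osteoblast-like nuclei (filled symbols) and other fibroblast nuclei (open symbols) of 7 dpi ADWA11 (orange), 21 dpi Ctrl (grey) and 21 dpi ADWA11 (purple). The 6 genes above the dotted line are those of the rule, and below it Runx2 and Smpd3 are right of the fibroblast symbols in all 3 libraries while Foxp2, Slc7a11, Col14a1 and Bmp6 are left of them.

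Summed levels of Runx2, Col22a1 and Smpd3 just outside the cutoff of 3 bone genes lay between those inside it and those in other fibroblasts. Sums cannot tell a gradient among nuclei from a mixture of different nuclei. Nuclei with exactly 3 of the bone genes (24 in 7 dpi ADWA11, 48 in 21 dpi Ctrl and 59 in 21 dpi ADWA11) had Runx2 at 6304, 6471 and 6225 CPM. Nuclei just outside with 2 of them (43, 134 and 192) had it at 4446, 2306 and 3275 CPM. Col22a1 was at 878, 660 and 578 CPM inside and 362, 26.3 and 130 CPM outside. Smpd3 was at 2491, 911 and 1135 CPM inside and 937, 58.9 and 184 CPM outside. In other fibroblasts as a whole, Smpd3 was at 19.9, 9.14 and 14.1 CPM. Nuclei just outside the cutoff were thus nearer to the osteoblast-like nuclei in 7 dpi ADWA11 than in the 21 dpi libraries for all 3 genes.

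Among themselves the osteoblast-like nuclei differed in a pair of gene groups that were picked after the values were seen. Tnc, Postn, Col12a1 and Col3a1 are matrix genes of wounds, periosteum and sutures, and the collagen chains Col22a1 and Col11a2 and the ligand Bmp3 were higher in nuclei without Alpl. Of 221 nuclei in the 3 libraries, 100 (45.2%) had more summed CPM of the first group than of the second, 120 had more of the second, 1 had equal sums, and 14 were within 2-fold. In 21 dpi Ctrl, nuclei with an Alpl UMI (33 of 74) had a median of 7771 CPM of the first group and 0 CPM of the second, and nuclei without (41) had medians of 104 and 3249 CPM. In 21 dpi ADWA11, the medians were 5579 and 162 CPM in the 54 nuclei with Alpl and 104 and 3698 CPM in the 60 without. In 7 dpi ADWA11, the medians were close in the 26 nuclei with Alpl, at 1033 and 877 CPM, and 0 and 4962 CPM in the 7 without. Both groups were picked from this split by Alpl, and Alpl is a gene of the rule, so these values restate the choice and are a description of the spread only. Depth was close in the 21 dpi libraries, where medians were 6646 UMIs with Alpl and 7692 without in Ctrl and 6628 and 6284.5 in ADWA11, but at 7 dpi they were 10021 and 3868 UMIs.

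**Figure D3:**
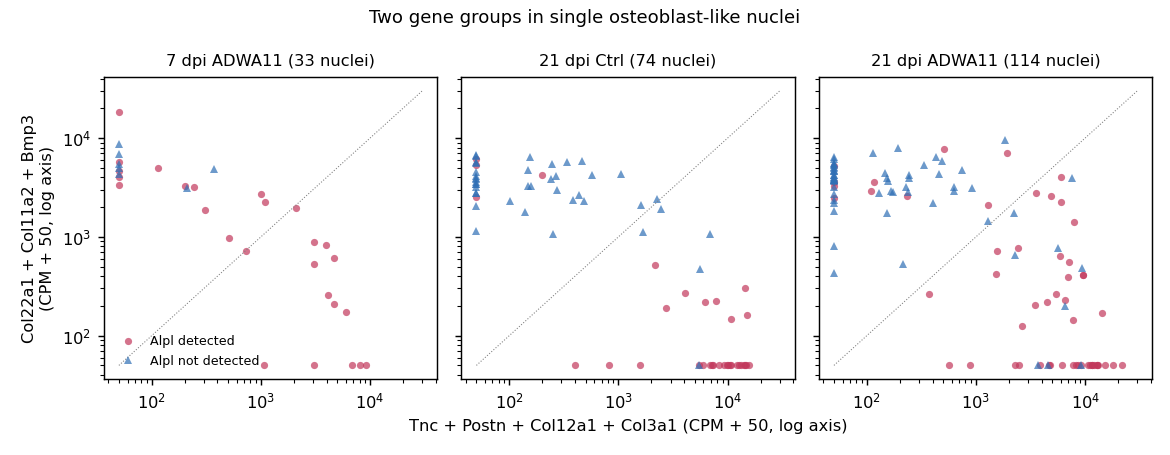
Each point is an osteoblast-like nucleus, with the summed level of Tnc, Postn, Col12a1 and Col3a1 on the x axis and of Col22a1, Col11a2 and Bmp3 on the y axis (CPM + 50, log axes), in 7 dpi ADWA11, 21 dpi Ctrl and 21 dpi ADWA11. Red circles have an Alpl UMI, blue triangles have none, and the dotted line is equality. Circles lie mostly at the lower right and triangles at the upper left at 21 dpi, as the choice of the genes by Alpl makes them.

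Runx2 was high on both sides of the split. In nuclei with and without Alpl it was at 6209 and 5717 CPM in 7 dpi ADWA11, 7351 and 5615 CPM in 21 dpi Ctrl, and 6720 and 6155 CPM in 21 dpi ADWA11. Col1a1, Bglap and Smpd3 were higher in the nuclei without Alpl. Col1a1 was at 5424 and 9553, 4983 and 22196, and 8265 and 23040 CPM with and without Alpl. Bglap was at 354 and 1136, 348 and 4285, and 686 and 1481 CPM, and Smpd3 at 2111 and 4297, 266 and 2073, and 612 and 2105 CPM. Single nuclei set some of these levels by over 1.5 times. Without the nucleus of that side with most UMIs of the gene, Col1a1 was at 13851 CPM in 21 dpi Ctrl nuclei without Alpl, and Bglap at 2776 CPM there. With Alpl, Bglap was then at 181 CPM in 7 dpi ADWA11 and 226 CPM in 21 dpi Ctrl, and Smpd3 at 120 CPM in 21 dpi Ctrl. Part of the Bglap gap follows from the rule, since a nucleus without Alpl needs 3 of the remaining genes. Tnc, the wound matrix glycoprotein tenascin C, was on the other side, at 943 and 0, 1933 and 202, and 2336 and 465 CPM, and without the top nucleus of the side at 595 CPM with Alpl in 7 dpi ADWA11 and at 91.2 and 273 CPM without Alpl in Ctrl and ADWA11 at 21 dpi. Col3a1, the type III collagen of soft tissue, was at 970 and 35.5, 2148 and 147, and 1651 and 190 CPM. Smpd3 had 0 UMIs in the 12 nuclei of 21 dpi Ctrl and the 8 of 21 dpi ADWA11 with neither Bglap nor Bglap2, and 779 and 1161 UMIs in the other 62 and 106. In 7 dpi ADWA11 it was as high in the 12 nuclei with neither gene (2232 CPM) as in the 21 with Bglap or Bglap2 (2380 CPM).

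The first comparison between conditions set ADWA11 against Ctrl at 21 dpi, and asked how the nuclei differ when αvβ8 is blocked. Over the pooled nuclei Runx2 was at near-equal levels, osteocalcin was lower in ADWA11, and 4 of 10 osteocyte genes were over 2-fold higher. Runx2 had a log2 ratio of 0.03. Col1a1 had 0.06 (0.02 to 0.09) at 15866 and 15272 CPM, but 1 nucleus held 35.8% of its UMIs in osteoblast-like Ctrl nuclei. Without it Col1a1 was at 10157 CPM in Ctrl, and in female nuclei it was at 11637 CPM in ADWA11 and 6695 CPM in Ctrl. Ibsp differed by 0.13 (-0.13 to 0.40), Sp7 by 0.06 (-0.24 to 0.36) and Alpl by -0.21 (-0.53 to 0.12). The intervals of Ibsp, Sp7 and Alpl include 0, so that these counts show no difference and do not show equality. Of 7474 genes with enough UMIs, 346 were over 2-fold higher in ADWA11 (4.63%) and 223 over 2-fold lower (2.98%), by the ratio alone. Of the 13 osteogenic transcription factors compared, 0 were over 2-fold higher and 1 lower, Dlx5, a homeobox activator of Runx2, at 14.3 CPM in ADWA11 and 36.3 CPM in Ctrl (log2 ratio -1.35, -2.50 to -0.26).

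Bglap was at 1095 CPM in ADWA11 and 2701 CPM in Ctrl, a log2 ratio of -1.30 (-1.42 to -1.18), although more nuclei had it in ADWA11 (97 of 114) than in Ctrl (54 of 74). Bglap2 differed alike, at 447 and 1068 CPM (-1.26, -1.45 to -1.07). This gap rested largely on 1 nucleus and on 1 mouse. Among the osteoblast-like nuclei of Ctrl, a nucleus of 19839 UMIs held 577 of the 1563 Bglap UMIs (36.9%) and 38.7% of those of Bglap2. Without that nucleus the log2 ratio of Bglap was -0.69, and without the 5 Ctrl nuclei with most Bglap it was -0.15, with no nucleus of ADWA11 left out. The median nucleus had 623 CPM of Bglap in Ctrl and 584 CPM in ADWA11. In nuclei called male Bglap was at 1266 CPM in ADWA11 and 3967 CPM in Ctrl, and in nuclei called female at 1021 and 871.5 CPM. It was the nucleus that also held most Col1a1.

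Phex and part of the osteocyte list were on the other side. Phex, a protease of osteoblasts and osteocytes that restrains the phosphate hormone FGF23, was at 631 CPM in ADWA11 and 51.8 CPM in Ctrl (531 and 30 UMIs in 33 and 10 nuclei), a log2 ratio of 3.61 (3.08 to 4.19). In male nuclei the log2 ratio was 3.78, and in female nuclei Phex was at 502 CPM in ADWA11 with 0 UMIs in Ctrl. Without the nucleus with most Phex UMIs the ADWA11 level was 557 CPM. Few nuclei carried much of it, and those with most held 66, 65, 58, 53, 46, 46 and 42 of the 531 UMIs. Of 10 osteocyte genes compared, 4 were over 2-fold higher and 0 lower. They were Phex, Kcnk2, Ptprz1 and Ackr3. The list median was 0.61, against 0.05 over all genes. Cd44 and Tnc, the latter named above as a wound matrix gene, set that median with 0.61 each. Kcnk2, a mechanosensitive potassium channel, had 1.51 (0.62 to 2.51), at 64.2 CPM in ADWA11 and 22.5 CPM in Ctrl. In other fibroblasts of these libraries Kcnk2 was at 68.4 and 100.3 CPM. Ptprz1, a receptor phosphatase, had 1.02 (0.78 to 1.27) and -0.0875 without the 5 ADWA11 nuclei with most of its UMIs. Ackr3, a scavenging chemokine receptor, had 48 UMIs in 7 nuclei of ADWA11 and 0 UMIs in Ctrl. Dmp1, counted with the rule and not in that list, had 2.27 (1.12 to 3.66), but from 10 nuclei against 3, and -0.69 without the 5 ADWA11 nuclei with most of it. Ank, which exports pyrophosphate, had 0.95 (0.66 to 1.26) at 419 and 216 CPM, but 1 ADWA11 nucleus held 146 of its 352 UMIs there, and without it Ank was at 247 CPM. Mepe, Sost and Fgf23, genes of mature osteocytes, had 0 UMIs in the osteoblast-like nuclei of all 3 libraries.

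**Figure D4:**
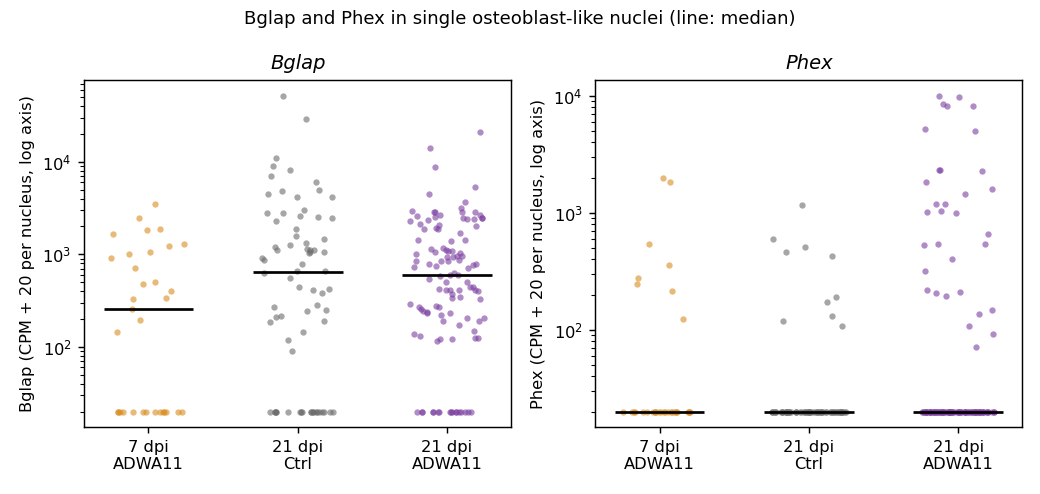
Level of Bglap and of Phex in each osteoblast-like nucleus (CPM + 20, log y axis) of 7 dpi ADWA11, 21 dpi Ctrl and 21 dpi ADWA11 (x axis); each point is a nucleus and the line is the median. The Bglap medians are 238, 623 and 584 CPM, with the highest nucleus, at 51913 CPM, in 21 dpi Ctrl, and Phex has a median of 0 in each library with 8, 10 and 33 nuclei above it.

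Among the matrix genes, Tnn (tenascin W, a periosteal matrix protein) was lower in ADWA11 with a log2 ratio of -2.16 (-3.10 to -1.29). Tnn did not pass the screen on sex and single nuclei that chose the lowest genes of this comparison. Ogn (osteoglycin) was higher with 1.18 (0.55 to 1.86) in the pooled nuclei and -0.30 in female nuclei. Of 23 bone matrix genes compared, 1 was over 2-fold higher (Ogn) and 2 lower (Tnn and Bglap3), with a median of 0.04, and Bglap3 was at 0.21 in female nuclei and 0.42 without the 5 Ctrl nuclei with most of it. Of 23 collagen processing genes, 2 were higher, P3h4 (1.18) and Adamts14 (1.06), and 0 lower. Of 19 TGFβ signalling genes, 1 was over 2-fold higher, Ltbp1, which tethers latent TGFβ to the matrix (1.12, 0.53 to 1.75), and 0 lower, where 4.63% of all genes compared were higher and 2.98% lower. Tgfbr2 was at 117 CPM in ADWA11 and 100 CPM in Ctrl, and Itgb8, the β8 chain of the integrin, at 42.8 and 38.0 CPM, against 149 and 134 CPM in other fibroblasts. None of the 7 TGFβ target genes passed 2-fold in either direction. Of 21 BMP genes 1 was higher, Bmp8a (1.05), and 1 lower, Bmp5 (-3.24), which also did not pass that screen. Of 14 Wnt genes 0 were higher and 1 lower, the Wnt modulator Dkk3 (-1.33).

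Genes of skeletal progenitors and of signals to osteoclasts were compared next. Of 7 genes of suture and periosteal progenitors, 2 were over 2-fold higher in ADWA11 and 0 lower, Ctsk, a cathepsin of osteoclasts and periosteal stem cells, at 74.9 CPM in ADWA11 and 36.3 CPM in Ctrl, and Cxcl12 at 101 and 34.6 CPM. Cxcl12 had a log2 ratio of 1.55 here and 1.59 in other fibroblasts, and Ctsk 1.05 here, 0.34 in other fibroblasts and 1.70 in all other nuclei. Cxcl12 was also the 1 gene of 4 osteoclast coupling genes that passed 2-fold. Of the 5 Hedgehog genes compared, 0 passed 2-fold, and the target gene Ptch1 was at 71.3 and 65.7 CPM. Of 7 FGF and parathyroid hormone genes, 0 passed 2-fold. Dural and meningeal genes leaned lower in ADWA11, with 0 of 11 higher, 3 lower and a median of -0.41, and Fgf13 was at 344.8 CPM in ADWA11 and 839.9 CPM in Ctrl.

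The 8 genes that the interval placed highest in ADWA11 were Phex, Cd5l, Magi1, 4833422C13Rik, Cspg4, Dock9, Dglucy and Alx1. Magi1, a scaffold of cell junctions, had 744 UMIs in ADWA11 and 178 in Ctrl (log2 ratio 1.52), and Cspg4, the NG2 proteoglycan, had 2.30. Alx1, a homeobox factor of the craniofacial skeleton, had 2.78. Cd5l, a protein that macrophages secrete, had 3.95, with UMIs in 36 and 2 osteoblast-like nuclei, and it was also at 1043 CPM in all other nuclei of ADWA11 and 137 CPM in those of Ctrl. The part of free RNA in the Cd5l value was not tested. The 8 lowest by the same rule, which leaves out genes with over 20% of their UMIs in 1 nucleus of the higher library, were Edil3 (-1.37), Pdzrn4 (-1.34), Rbfox1 (-1.72), Matn2 (-1.68), Slc8a1 (-1.30), Rbm15 (-2.02), Dlg2 (-1.13) and Fgf13 (-1.28). Matn2 is a matrix filament protein, and Edil3 a secreted integrin ligand. Pdzrn4 had the opposite direction in other fibroblasts, at 1055 CPM in ADWA11 and 182 CPM in Ctrl. Rbfox1, Dlg2 and Fgf13 were also lower there, with -1.45, -1.83 and -0.47, and in all other nuclei with -3.28, -2.90 and -2.41. Other fibroblasts had the same direction for 3 of the 8 higher and 5 of the 8 lower genes, past 2-fold for 1 and 3 of them.

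The other comparison set 21 dpi against 7 dpi within ADWA11, and asked how the nuclei differ with time after injury. It shares the 21 dpi ADWA11 library with the comparison above. Osteocalcin, the main collagen and Sparc were higher at 21 dpi, and Runx2 was near its earlier level. Nuclei were admitted by UMIs of the rule genes, so the levels of Bglap, Bglap2, Ibsp, Sp7, Dmp1 and Alpl among them depend in part on the rule in this comparison and in that with Ctrl, and are a description. Bglap was at 1095 CPM at 21 dpi and 421 CPM at 7 dpi (log2 ratio 1.38, 1.12 to 1.65), Bglap2 at 447 and 154 CPM (1.54, 1.11 to 2.00), Col1a1 at 15866 and 5782 CPM (1.46, 1.39 to 1.53) and Sparc at 3521 and 1553 CPM (1.18, 1.04 to 1.32). Alpl was detected in 47.4% of the nuclei at 21 dpi and 78.8% at 7 dpi. In nuclei with Alpl, Bglap was at 686 and 354 CPM and Col1a1 at 8265 and 5424 CPM. In nuclei without it, Bglap was at 1481 and 1136 CPM and Col1a1 at 23040 and 9553 CPM. The part of this mix in the pooled ratios was not tested. Alpl was at 214 and 354 CPM (-0.72, -1.07 to -0.37), but it went opposite ways in the mice of the pools, at 216.7 and 500.5 CPM in female nuclei and 223.3 and 133.8 CPM in male nuclei. Runx2 had a log2 ratio of 0.06 and Sp7 of 0.28. Ibsp had -0.01 over all nuclei, from 353 CPM at 21 dpi and 234 CPM at 7 dpi in female nuclei and 466 and 714 CPM in male nuclei. The wound matrix gene Tnc had 0.67 (0.48 to 0.87), but 1 nucleus held 42.5% of its 7 dpi UMIs and the ratio was 1.35 without it, and -0.62 in nuclei with at least 4 of the bone genes. Of 5528 genes with enough UMIs, 380 were over 2-fold higher at 21 dpi (6.87%) and 241 over 2-fold lower (4.36%). Among the osteoblast-like nuclei of 7 dpi ADWA11, a single nucleus of 15483 UMIs held 39.4% of Bglap and 56.0% of Phex UMIs. Without it the log2 ratio was 2.03 for Bglap and 3.15 for Phex. Osteocalcin also differed outside the osteoblast-like nuclei, with 2.79 for Bglap and 5.07 for Bglap2 in other fibroblasts. In all other nuclei the ratios were 4.15 and 4.71. Bglap at 7 dpi was at 1.55 CPM in other fibroblasts and 0.533 CPM in all other nuclei. The part of free RNA in these values was not tested.

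Among small proteoglycans of collagen fibrils, which were no list of their own, log2 ratios were 1.40 for Lum, 2.52 for Ogn and 1.77 for Fmod, and 0.84 for Bgn, under 2-fold, although Fmod had -0.27 with nuclei carrying markers of another class left out. Vcan and Fn1, the versican and fibronectin of provisional matrix, were lower with -2.36 and -1.42. Other fibroblasts of the same libraries differed the same way, with log2 ratios of 0.68 for Lum, 1.48 for Ogn, 2.61 for Fmod, -3.94 for Vcan and -1.02 for Fn1, whereas Col1a1 had -0.02 there. Of 21 bone matrix genes compared, 5 were over 2-fold higher and 2 lower, with a median of 0.33 against -0.02 over all genes, and of -0.0111 with CPM averaged over nuclei. Of 11 mineralization genes, 4 were higher and 1 lower, with a median of -0.27, below that of all genes. That median was 0.12 in female nuclei, 0.51 in male nuclei and 0.17 with at least 4 of the bone genes. With nuclei carrying markers of another class left out it was 0.23. Phex had 2.04 (1.62 to 2.49), Ank 1.42, Enpp1, which makes pyrophosphate, 1.31, and Mgp, an inhibitor of calcification, 1.94 (1.79 in other fibroblasts), while the citrate transporter Slc13a5 had -1.36 (-1.68 to -1.05). Of 9 osteocyte genes, 5 were higher and 0 lower with a median of 1.19, namely Phex, Ptprz1 (2.00), Kcnk2 (1.80), Cd44 (1.19) and Ackr3, which had 48 UMIs at 21 dpi and 1 at 7 dpi. Cd44 was itself the median gene, and the list also held the wound matrix gene Tnc (0.67). In nuclei with at least 4 of the bone genes the list median was 0.39 and Kcnk2 was at -0.0167. In other fibroblasts Kcnk2 was at 68.4 CPM at 21 dpi and 153 CPM at 7 dpi. Ptprz1 was at 0.90, under 2-fold, without the 5 nuclei of 21 dpi with most of it. Ank, Enpp1 and Mgp oppose mineralization, but such genes were no list of their own, and Mgp differed nearly as much in other fibroblasts. Ank and Enpp1 turned to -0.32 and -1.59 without the 5 nuclei of 21 dpi that held most of their UMIs.

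Of 19 TGFβ signalling genes, 0 were over 2-fold higher at 21 dpi and 3 lower, Tgfb2 (-1.12), Tgfb3 (-1.26) and Itgb8 (-1.16), and each of these turned direction with few nuclei left out. Without the 5 nuclei of 7 dpi with most of the gene, Tgfb2 was at 2.08 and Itgb8 at 1.03, and with nuclei carrying markers of another class left out they were at 1.45 and 0.0389. Tgfb3 at 7 dpi came from 1 nucleus that held 21 of 26 UMIs, and its log2 ratio was 1.06 without that nucleus. Of 15 BMP genes, 3 were higher and 0 lower, with Bmp3, an inhibitory BMP of mature osteoblasts, at 2.18, Bmp8a at 1.54 and the BMP target Id3 at 2.03 (2.19 in other fibroblasts). Of 11 Wnt genes, 2 were higher, the secreted Wnt inhibitors Wif1 (1.78) and Sfrp4 (3.33, and 2.49 in other fibroblasts), and 0 lower. Without the 7 dpi nucleus with most of the gene, Wif1 was at 2.45 and Sfrp4 at 4.29. Of the 5 Hedgehog genes compared, 0 passed 2-fold, with Gli2, a transcription factor of the pathway, at 126 and 227.6 CPM (-0.85, and -0.89 in other fibroblasts) and Ptch1 at 71.3 and 126.1 CPM. Of 7 suture and periosteal progenitor genes, 3 were higher (Ctsk at 1.61, Cxcl12 at 1.87, and Aspn) and 1 lower, the leptin receptor Lepr, which had -2.08 and 0.0130 without the 5 nuclei of 7 dpi with most of it. Cxcl12 had 1.40 in other fibroblasts, and Ctsk 2.68 in all other nuclei. Panx3, a channel protein of osteoblasts and chondrocytes, was lower at 21 dpi with -2.39 (-3.02 to -1.79), and Sema3a, a guidance cue, with -3.68. Sema3a did not pass the screen on sex and single nuclei that chose the 8 lowest genes. The 8 genes placed highest by the interval included Phex and Ptprz1 from above and Slit2, an axon guidance protein, at 3665 and 1086 CPM (1.76, 1.60 to 1.92). They also included Magi1 (1.88), Xdh (2.81, 1.64 to 4.29) and Crispld2 (4.21, 1.67 to 9.55), which had 1 UMI at 7 dpi. The 8 lowest included Panx3, Slc13a5, Fras1 (-2.29), Mical2 (-1.52) and Stab1 (-2.22). Stab1, a scavenger receptor of macrophages and endothelium, was also at 340 and 939 CPM in all other nuclei. Other fibroblasts had the same direction for 6 of the 8 higher and 8 of the 8 lower genes, but past 2-fold for only 3 and 2 of them.

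**Figure D5:**
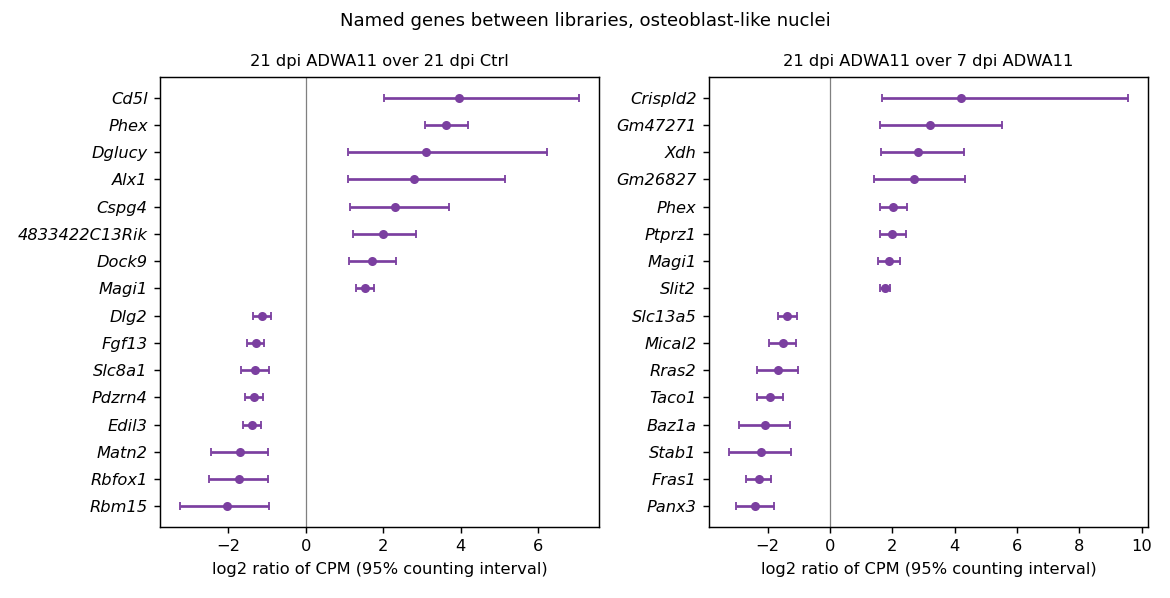
Log2 ratios with 95% counting intervals (x axis) of the genes named by interval in each comparison, 21 dpi ADWA11 over 21 dpi Ctrl and 21 dpi ADWA11 over 7 dpi ADWA11, each with 8 genes in either direction (y axis). Of the genes shown, Phex (3.61) has the interval farthest above 0 in the comparison with Ctrl, and Magi1 is right of 0 in both (1.52 and 1.88).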

How the data were processed

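The authors made the count matrices with Cell Ranger (version 7.2.0 per the file headers, 7.1.0 in the submitters' processing notes) on mm10, and deposited UMI counts per gene and barcode for 6 lesion libraries of 2 pooled mice each. Chromium 3′ chemistry counts transcript ends. Single nuclei were then selected by the stated rule, and no doublet caller was run. Nuclei with at least 3 markers of another class were instead left out as an alternative, although some of these markers are also bone or fibroblast genes. Cell classes were rebuilt here from marker genes, so a difference from the study may come from these names.

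UMIs were summed over the osteoblast-like nuclei of a library and scaled to CPM of non-mitochondrial UMIs. A gene was compared where the pooled rate gave at least 10 expected UMIs on each side. Other fibroblasts were nuclei outside the rule with at least 3 of 6 fibroblast genes and at most 1 exclusion gene. Ratios carry exact conditional binomial intervals, shares exact Clopper-Pearson intervals at 95%, and a gene counts as higher or lower past 2-fold. Each group had 1 library, so no test was made. Nuclei were called female by Xist without Y-linked UMIs and male by the reverse. Named genes were the rule genes, genes of the lists, the 8 per direction and comparison with the interval bound farthest from 0 (same direction in both sexes, no nucleus with over 20% of the UMIs in the higher library), and the 20 genes with the largest smallest ratio to fibroblasts. The members and the lists were chosen with earlier results of these data known. A gene withheld from this text is not reported here. Gene positions are GENCODE M21 on GRCm38, and 32158 of 32285 gene identifiers matched. Code was tested on simulated data. Alternatives changed the marker number, UMI and mitochondrial minimum, exclusion genes, thinning to 1000 UMIs, scaling, denominator, sex and single nuclei. Python 3.11.15 with numpy 2.4.6, pandas 2.3.3, scipy 1.17.1 and matplotlib 3.10.9 was used.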

Additional observations from a re-analysis of the deposited data

Results flagged for a closer look

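The difference between ADWA11 and Ctrl at 21 dpi ran opposite ways in the female and the male nuclei of the pools. The ratio of the shares of osteoblast-like nuclei was 5.61 in female nuclei and 0.56 in male nuclei, with intervals on either side of 1. The log2 ratio of Bglap was 0.229 in female nuclei and -1.65 in male nuclei, and that of Bglap2 was 0.0718 and -1.76. Each sex is 1 mouse per library, so sex, animal and dissection cannot be told apart, and the difference between the sexes was not tested.

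Barcodes left out by the filter also held the bone genes. At least 3 of the 6 genes of the rule were detected in 10 such barcodes of 21 dpi Ctrl and 8 of 21 dpi ADWA11, against 0 in 7 dpi Ctrl and 1 in 7 dpi ADWA11.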

How the results depend on the processing

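No paired analysis was possible because each group was 1 library and the labels gave no replicate numbers to pair; the nuclei called female and male, 1 mouse each, were compared apart instead. The alternatives kept the direction of the share ratios except for ADWA11 over Ctrl in male nuclei at 21 dpi and for ratios of 7 dpi Tgfbr2-cKO with its 2 nuclei, and the causes were not tested. The ratio of ADWA11 to Ctrl at 21 dpi was 2.02 with at least 4 markers, 2.98 thinned to 1000 UMIs, 2.68 over fibroblasts, 5.61 in female nuclei and turned to 0.560 in male nuclei. It was 1.24 (0.873 to 1.75) with no exclusion gene detected and 1.41 (0.926 to 2.16) with nuclei of mixed markers left out, where the interval includes 1. The ratio at 7 dpi was 2.62 with at least 2 markers, 17.7 under 1% mitochondrial UMIs, and 6.52 (0.903 to 286) with at least 4 markers and 3.62 (0.405 to 171) thinned, where the interval includes 1. The ratio of 21 to 7 dpi in ADWA11 was 5.27 with at least 4 markers, 4.58 without Alpl, 4.71 in female and 1.78 (0.926 to 3.70) in male nuclei, where the interval includes 1. In Ctrl the ratio of 21 to 7 dpi was 5.24 thinned (0.703 to 233), 6.49 with at least 2 markers, 32.8 without Alpl and at least 2.59 in female nuclei. The ratio of Tgfbr2-cKO to Ctrl at 7 dpi was 4.37 over fibroblasts and 1.24 under 1% mitochondrial UMIs. It was 0.173 (0.0511 to 0.473) with at least 2 markers and 0.250 (0.114 to 0.510) with the check markers, where the interval leaves out 1. At 21 dpi it was 0.174 with at least 2 markers and at most 0.715 thinned. The Tgfbr2-cKO ratio of 21 to 7 dpi, 0.858 by the rule, was 6.52 with at least 2 markers and 3.74 with the check markers. With the check markers in place of the rule genes, chosen after seeing the data, the ratios were 2.11 for ADWA11 over Ctrl at 7 dpi, 0.385 for Tgfbr2-cKO over Ctrl at 21 dpi, and 2.44 and 1.93 for 21 over 7 dpi in Ctrl and ADWA11.

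Counts of genes past 2-fold changed as follows. For ADWA11 over Ctrl, 110 were lower with at least 4 markers, 220 higher and 96 lower with nuclei of mixed markers left out, 190 higher in female nuclei, 147 lower in male nuclei, and 3804 higher and 2531 lower with no filter on low counts. For 21 over 7 dpi the counts were 113 and 84 with at least 4 markers, 149 and 83 with mixed nuclei left out, 167 and 121 in male nuclei, and 5121 and 2348 with no filter. Against fibroblasts, 74 were higher and 256 lower with mixed nuclei left out, of which 57 and 177 were among those of the main comparison.

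Median log2 ratios of lists moved as follows. For ADWA11 over Ctrl, mineralization was -0.28 with mixed nuclei left out and 0.74 in female nuclei, and osteocyte 1.60 in female nuclei. For 21 over 7 dpi, bone matrix was -0.0111 as a mean over nuclei. Mineralization, at -0.27 in all nuclei, was 0.17 with at least 4 markers, 0.23 with mixed nuclei left out, 0.12 in female and 0.51 in male nuclei. Osteogenic transcription factors were 0.19 with at least 4 markers and -0.61 in male nuclei. The osteocyte list was 0.39 with at least 4 markers and 2.65 with mixed nuclei left out, and Wnt was 0.97 with mixed nuclei left out.

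Single genes turned direction as follows. For ADWA11 over Ctrl in female nuclei, Bglap was 0.23, Bglap2 0.0718, Bglap3 0.21 and Ogn -0.30, and without the 5 nuclei with most UMIs of the gene in the library where it is higher, which lowers that side alone, Bglap3 was 0.42, Dmp1 -0.69 and Ptprz1 -0.0875. For 21 over 7 dpi, Dmp1 was -0.33 as a mean over nuclei, Tgfb3 1.40 and Kcnk2 -0.0167 with at least 4 markers, and Tgfb3 1.29 in male nuclei. With mixed nuclei left out Tgfb2 was 1.45, Itgb8 0.0389 and Fmod -0.27. Without the nucleus with most UMIs, a setting added after seeing the data, as were those for the lower library and for nuclei with and without Alpl, Tgfb3 was 1.06. With the top nucleus of 7 dpi left out for genes lower there, Bglap was 2.03, Phex 3.15, Kcnk2 3.35 and Fmod 3.03, with no turn of direction. Without the 5 nuclei with most, Dmp1 was -1.88, Tgfb2 2.08, Itgb8 1.03, Ank -0.32, Enpp1 -1.59 and Lepr 0.0130. TMM and median-of-ratios scaling shift all genes alike, by 0.041 and 0.045 for ADWA11 over Ctrl, so they are no check on single genes, and values within that shift of 0 (among them Runx2, Smpd3 and the bone matrix and mineralization medians) turned sign. With 33 to 114 nuclei in a library, genes near 10 expected UMIs are set by few nuclei.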

Other observations

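The few nuclei with Dmp1 included some that held much of the UMIs of the pyrophosphate genes Ank and Enpp1 and of Spp1 (osteopontin), and these were picked out after their values were seen. Of the 10 Dmp1 nuclei of 21 dpi ADWA11, 1 nucleus of 6963 UMIs had 14 Dmp1 UMIs and held 146 of the 352 Ank UMIs, 56 of the 109 Enpp1 UMIs and 100 of the 444 Spp1 UMIs of all osteoblast-like nuclei in the library. A nucleus of 6646 UMIs had 12 Dmp1 UMIs and 99 Spp1 UMIs. In 21 dpi Ctrl, a nucleus of 5894 UMIs with 3 Dmp1 UMIs held 33 of 125 Ank, 44 of 58 Enpp1 and 45 of 182 Spp1 UMIs. Phex was detected in 33 of the 114 nuclei of 21 dpi ADWA11 and in 3 of the 10 with Dmp1. In 7 dpi ADWA11 both nuclei with Dmp1 had Phex and held 29 of its 50 UMIs in osteoblast-like nuclei.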
